A study of Rattus norvegicus with 2 samples.

Results

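The genes that assemble, branch, cap, sever, bundle and anchor actin filaments were followed in rat OPCs (oligodendrocyte precursor cells), which divide in the brain and can mature into the glia that make myelin. The 59 genes were chosen by name from a list of actin regulators, with earlier results of these data known. All 59 were found among the 17455 genes of the expression table. Wild type cells were transfected, with a Lonza kit, either with a Slit1 construct (called Slit1 below) or with the vector (labelled control). There was 1 library in each group, so no difference given below has a replicate check and no test was possible. Neither the time of harvest, nor strain, age or the number of cultures behind a library is stated in the labels. Reads of the construct and of the chromosomal Slit1 gene cannot be told apart.

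Actin filaments grow by addition of monomers that are held in reserve by thymosins and delivered by profilins. The Arp2/3 complex, switched on by the WAVE complex or by N-WASP, starts new branches on existing filaments. Formins and Ena/VASP proteins extend unbranched filaments, capping proteins stop growth, and cofilins and gelsolin sever or take filaments apart. Bundling proteins tie filaments together, and the ERM proteins (ezrin, radixin and moesin) link them to the plasma membrane. In rodents, outgrowth of oligodendrocyte processes is known to depend on branched actin assembly, and the later wrapping of myelin goes with loss of filamentous actin.

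Estimated read counts summed to 18998770 in Slit1 and 18817462 in vector. Slit1 itself was at 229.7 TPM in Slit1 and 1.70 TPM in vector, where TPM is a level scaled for gene length and for the library total. The OPC label was checked against marker genes. The 7 measured OPC markers summed to 2085 TPM in Slit1 and 2047 TPM in vector, but they went different ways. Sox10 (218 TPM in Slit1 and 71.4 TPM in vector) and Gpr17 (263 TPM in Slit1 and 109.8 TPM in vector) were more than 2-fold higher. They were the 2 of the 7 at least 1.5-fold higher, beside 3.72% of all genes that averaged 1 TPM or more. Ptprz1 was at 688 TPM in Slit1 and 914 TPM in vector. The rest of the 7 differed little. Pdgfra was at 41.38 TPM in Slit1 and 40.25 TPM in vector, and Cspg4 at 10.34 TPM in Slit1 and 10.07 TPM in vector. Olig1 was at 686 TPM in Slit1 and 730 TPM in vector, and Olig2 at 178 TPM in Slit1 and 171 TPM in vector. Because the 7 markers went different ways, the near-equal sums do not show that the OPC state was unchanged. The 11 measured markers of newly formed and myelinating oligodendrocytes summed to 4787 TPM in Slit1 and 1213 TPM in vector. Astrocyte markers were abundant as well: the 9 listed summed to 10450 TPM in Slit1 and 9447 TPM in vector, with Gfap, an astrocyte filament protein, at 6130 TPM in Slit1 and 4694 TPM in vector. Of these 9, 8 reached a mean of 1 TPM, and 2 of the 8 were at least 1.5-fold lower in Slit1, namely Slc1a2 (94.1 TPM in Slit1 and 215.4 TPM in vector) and Gja1 (295.7 TPM in Slit1 and 506.2 TPM in vector). Among all genes at that mean, 4.83% were at least 1.5-fold lower. Whether the OPC, oligodendrocyte and astrocyte markers had a part in any result below was not tested. In bulk RNA, fewer cells of a type and less RNA per cell cannot be told apart.

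Differences are given as the Slit1 minus vector difference of log2(TPM + 1), and a gene is called higher or lower when this reaches a 1.5-fold change. Brackets after a TPM ratio hold its exact 95% interval from the estimated counts, which covers counting error only. Of the 59 members, 4 were called higher (6.78%), namely Tagln, Wasf1, Cyfip2 and Fscn1. In the same comparison 3.72% of the 13175 genes that averaged 1 TPM or more were called higher. Msn and Ezr were the 2 members called lower (3.39%), against 4.83% of all those genes. The share called higher was above that of all genes and the share called lower was below it; with 4 and 2 genes and 1 library per group, neither gap was tested. Among genes that averaged 5 TPM or more the backgrounds were 3.1% higher and 4.23% lower. At a limit of 2-fold they were 1.24% higher and 0.645% lower, with 1 member higher and 0 lower. Setting the median gene to 0 turned the split of all genes to 4.43% higher and 3.72% lower, and left 4 members higher and 1 lower. The other 53 members lay between the limits. The median difference of the members was -0.11 on the log2 scale, beside -0.05 for all 13175 genes, with 22 members above 0 and 37 below. All 59 members passed the 1 TPM floor and none was at 0 in either library. Their TPM summed to 24168 in Slit1 and 25540 in vector, which is 2.42% of the Slit1 total and 2.55% of the vector total.

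**Figure D1:**
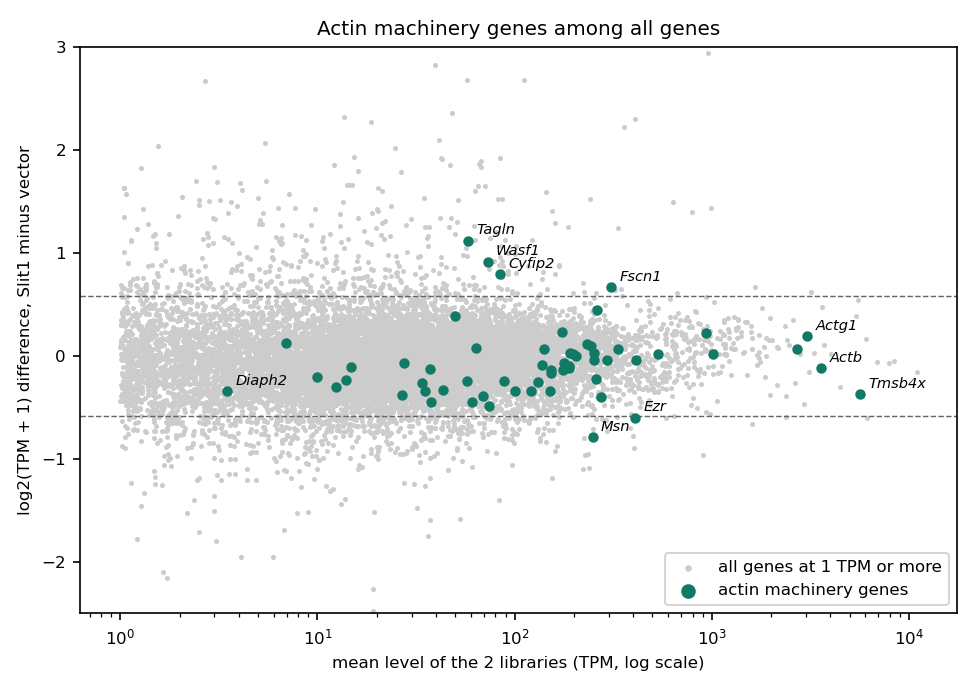
Each dot is a gene that averaged 1 TPM or more, plotted by its mean level (TPM, log axis) and its log2(TPM + 1) difference, Slit1 minus vector; green dots are the 59 actin machinery genes and dashed lines mark 1.5-fold. Most green dots lie inside the grey cloud between the dashed lines, Tagln, Wasf1, Cyfip2 and Fscn1 lie above and Msn and Ezr below, and 12 genes fall outside the vertical axis.

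The promoter sequences below are those of Wasf1, Cyfip2 and Fscn1, which were called higher, and of the 3 ERM genes, of which Msn and Ezr were called lower. They are RefSeq sequences of assembly GRCr8, each covering 250 bases before and 50 bases after the annotated start of the gene, written 5′ to 3′ on the gene's strand. Of the 59 members, 54 had an entry in the promoter table; Actb, Actn4, Arpc1a, Capg and Tagln had none. Capitals mark the letters GGGCGG, the core of a GC box, on either strand. In the Fscn1 promoter they mark the TATA box letters TATAAA.

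Wasf1 (chr20:45908208-45908507, plus strand): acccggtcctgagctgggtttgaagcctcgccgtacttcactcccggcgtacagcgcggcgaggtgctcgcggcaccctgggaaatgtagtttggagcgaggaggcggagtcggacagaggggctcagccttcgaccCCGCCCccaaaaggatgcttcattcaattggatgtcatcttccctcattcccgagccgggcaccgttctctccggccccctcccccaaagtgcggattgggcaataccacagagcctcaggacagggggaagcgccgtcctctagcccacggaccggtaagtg
Cyfip2 (chr10:31242391-31242690, minus strand): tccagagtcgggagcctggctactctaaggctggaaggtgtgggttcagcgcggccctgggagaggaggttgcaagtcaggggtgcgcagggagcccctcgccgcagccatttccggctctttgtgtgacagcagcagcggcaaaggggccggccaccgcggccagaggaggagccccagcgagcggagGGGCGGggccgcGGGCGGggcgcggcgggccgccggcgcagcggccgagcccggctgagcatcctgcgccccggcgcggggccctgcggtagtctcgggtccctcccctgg
Fscn1 (chr12:16723685-16723984, minus strand): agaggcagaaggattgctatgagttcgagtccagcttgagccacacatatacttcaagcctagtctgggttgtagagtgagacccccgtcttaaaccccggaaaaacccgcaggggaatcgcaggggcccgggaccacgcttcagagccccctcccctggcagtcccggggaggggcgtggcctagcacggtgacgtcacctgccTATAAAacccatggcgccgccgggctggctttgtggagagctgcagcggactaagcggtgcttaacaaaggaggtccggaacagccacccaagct
Msn (chrX:65005296-65005595, plus strand): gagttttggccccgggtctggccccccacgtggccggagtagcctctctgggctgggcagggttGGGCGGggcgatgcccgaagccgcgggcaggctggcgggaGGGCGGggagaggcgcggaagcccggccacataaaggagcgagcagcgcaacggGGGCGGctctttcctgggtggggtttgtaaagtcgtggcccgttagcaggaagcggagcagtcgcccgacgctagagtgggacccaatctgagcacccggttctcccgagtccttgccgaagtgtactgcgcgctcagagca
Ezr (chr1:49416524-49416823, minus strand): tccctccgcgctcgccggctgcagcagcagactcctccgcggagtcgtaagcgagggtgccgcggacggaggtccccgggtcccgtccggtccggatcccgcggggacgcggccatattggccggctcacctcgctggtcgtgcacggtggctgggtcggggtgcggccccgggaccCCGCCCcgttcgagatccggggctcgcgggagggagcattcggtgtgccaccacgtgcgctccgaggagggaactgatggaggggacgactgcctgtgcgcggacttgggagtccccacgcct
Rdx (chr8:61275542-61275841, plus strand): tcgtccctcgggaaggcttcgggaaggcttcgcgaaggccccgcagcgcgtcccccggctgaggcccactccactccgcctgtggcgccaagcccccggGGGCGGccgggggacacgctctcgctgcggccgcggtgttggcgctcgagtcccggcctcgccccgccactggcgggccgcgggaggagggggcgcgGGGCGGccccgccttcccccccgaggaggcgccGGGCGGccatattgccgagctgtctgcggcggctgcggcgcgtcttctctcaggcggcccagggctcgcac

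Motifs were searched on both strands in all 33469 promoters of the table. GGGCGG was present in 50 of the 54 members with a promoter and in 33.1% of all promoters. The median GC content was 68.7% for the members' promoters and 51.7% for all. The members' median was taken over 57 entries. Every member averaged 1 TPM or more, whereas the 33469 promoters were not limited to genes expressed in these cells. No share over expressed genes was computed, so neither gap can be read as particular to actin genes. All 3 ERM promoters and those of Wasf1 and Cyfip2 held GGGCGG, with 3 copies each in Msn and Rdx and 1 in Ezr. Fscn1 was the member with TATAAA, a motif found in 14.2% of all promoters, and its copy began 45 bases before the start. The CArG box, the site read by serum response factor in many actin genes, was found in 1.64% of all promoters. Of the 54 members with a promoter, 1 held it, Actg1. Actb, Actn4, Arpc1a, Capg and Tagln had no entry and could not be searched. Members were counted by gene and all promoters by entry. ACAAAG was found in 18.8% of all promoters and in 4 members, among them Cyfip2 and Fscn1, and GGAATG in 14.2% of all and in 11 members, among them Wasf1. A match is a stretch of letters and not evidence of binding, and the motifs were chosen with the values known.

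The cytoplasmic actins, the monomers from which all filaments are built, were among the most abundant members. Actb (beta-actin) was at 3432 TPM in Slit1 and 3731 TPM in vector, a ratio of 0.920 (0.908 to 0.932). Actg1 (gamma-actin) was at 3256 TPM in Slit1 and 2846 TPM in vector, a ratio of 1.14 (1.13 to 1.16). Thus the pair lay on opposite sides of 0, and their summed level was nearly equal, 6689 TPM in Slit1 and 6577 TPM in vector. Gamma-actin made up 48.7% of this sum in Slit1 and 43.3% in vector. Actb and Actg1 have 10 and 11 named pseudogene copies in RefSeq, none of which had a row of its own in the expression table, so their values are uncertain if reads were divided among copies.

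Monomer-binding proteins were the most abundant role group, at 7236 TPM in Slit1 and 8534 TPM in vector. Most of the difference came from Tmsb4x, thymosin beta-4, which sequesters actin monomers and was the most abundant member of all: 4957 TPM in Slit1 and 6405 TPM in vector, 1.29-fold lower (1.27 to 1.31). Its relative Tmsb10 was at 1028 TPM in Slit1 and 1011 TPM in vector. Pfn1, profilin 1, which feeds monomers to growing ends, was at 1003 TPM in Slit1 and 863 TPM in vector (ratio 1.163, 1.123 to 1.205), and Pfn2 at 248 TPM in Slit1 and 255 TPM in vector. Per 100 TPM of the summed actins, monomer binders stood at 108 TPM in Slit1 and 130 TPM in vector. None of the 4 reached 1.5-fold.

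**Figure D2:**
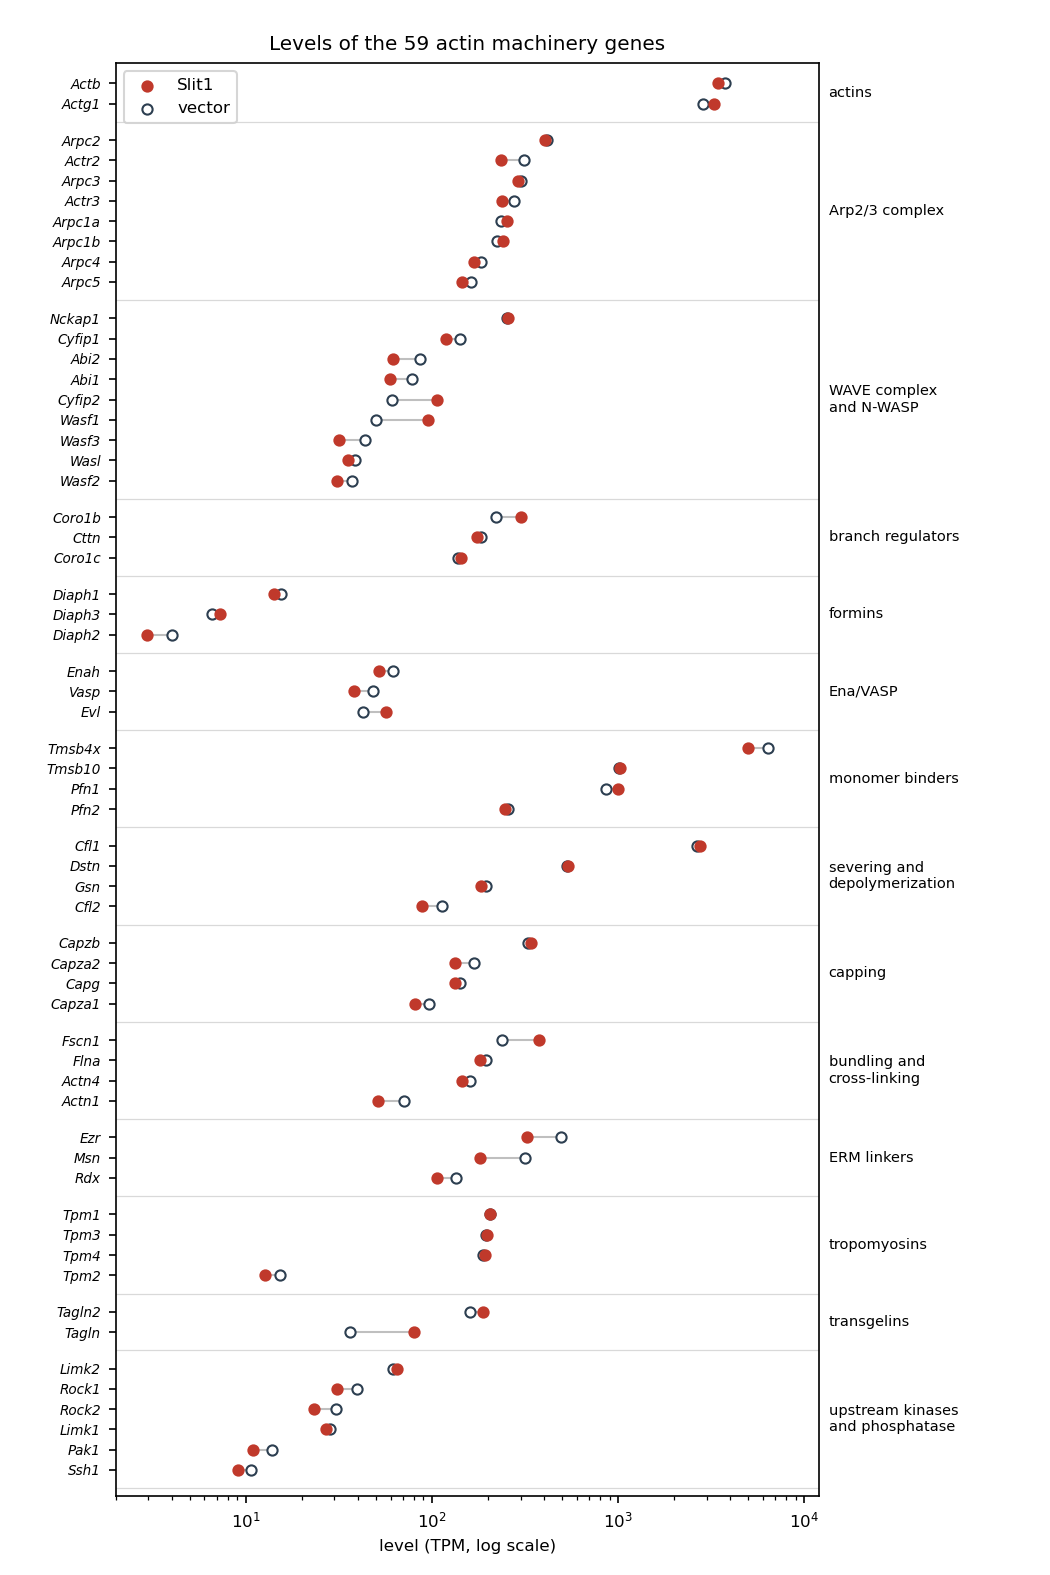
Level of each of the 59 members (TPM, log axis) in Slit1 (filled red) and in vector (open), 1 library each, grouped by role; a grey line joins the values of a gene. The long lines belong to Tagln, Wasf1, Cyfip2, Fscn1 and Msn, whereas the dots of most Arp2/3, tropomyosin and cofilin genes nearly coincide.

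RNA of the Arp2/3 genes summed to 1978 TPM in Slit1 and 2112 TPM in vector, while the shares of the WAVE and CYFIP genes differed. Protein levels and assembled complexes were not measured. None of the 8 measured genes of the Arp2/3 complex was called, and their median difference was -0.09. Among the WAVE complex and N-WASP genes, 2 of 9 were called higher (Wasf1 and Cyfip2), beside 3.72% of all genes, and 0 lower, beside 4.83%. Their median was nevertheless -0.25, since 6 of the 9 lay below 0. The group's summed level was 797 TPM in Slit1 and 790 TPM in vector. With 1 library each, the difference between these groups could not be tested.

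Of the Arp2/3 subunits, Actr2 and Actr3 encode the actin-related proteins Arp2 and Arp3, which form the first 2 subunits of the new branch. Actr2 was at 236 TPM in Slit1 and 312 TPM in vector, 1.32-fold lower (1.28 to 1.37), the largest difference in the complex in TPM. In CPM its log2 difference was -0.27, beside -0.40 in TPM. Actr3 was at 238 TPM in Slit1 and 278 TPM in vector, 1.17-fold lower (1.12 to 1.22). The scaffold subunits moved less. Arpc2, with Arpc4 the core of the complex, was at 406 TPM in Slit1 and 416 TPM in vector, and Arpc4 at 168 TPM in Slit1 and 185 TPM in vector. Arpc3 measured 290.4 TPM in Slit1 and 299 TPM in vector, and Arpc5, the subunit with alternative isoforms, 145 TPM in Slit1 and 162 TPM in vector. The alternative subunits Arpc1a (253 TPM in Slit1 and 236 TPM in vector) and Arpc1b (243 TPM in Slit1 and 224 TPM in vector) were the 2 members of the complex above 0, with ratios of 1.07 (1.02 to 1.12) and 1.08 (1.03 to 1.14). They kept an even mixture: Arpc1b made up 48.9% of the summed ARPC1 level in Slit1 and 48.7% in vector. Of the 8 genes, 2 lay above 0 in TPM, but 4 did so with the median gene set to 0, in CPM (counts scaled to the library total only), with edgeR TMM factors or in FPKM.

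The WAVE complex is assembled from 1 WAVE protein, 1 CYFIP, Nckap1, 1 ABI and the small subunit Brk1, and vertebrates have several genes for most positions. Wasf1, which encodes WAVE1 and is needed for normal oligodendrocyte morphology in mice, was at 95.6 TPM in Slit1 and 50.2 TPM in vector, 1.90-fold higher (1.77 to 2.05). The other WAVE genes were on the other side of 0: Wasf2 was at 30.8 TPM in Slit1 and 37.1 TPM in vector, and Wasf3 at 31.7 TPM in Slit1 and 43.6 TPM in vector. Wasf1 therefore made up 60.5% of the summed WAVE level in Slit1 (exact counting interval 59.1% to 61.9%) and 38.4% in vector (36.7% to 40.04%). Among the 3 genes it ranked first in each library.

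A difference in share was also seen at the CYFIP position, though Cyfip1 held the larger share in each library (52.8% in Slit1 and 69.9% in vector). The CYFIP proteins bind the small GTPase Rac and hold WAVE inactive until it arrives. Cyfip2 was at 107 TPM in Slit1 and 61.1 TPM in vector, 1.75-fold higher (1.67 to 1.82). Cyfip1 was at 119 TPM in Slit1 and 142 TPM in vector, 1.19-fold lower (1.14 to 1.24). Cyfip2 thus supplied 47.2% of the summed CYFIP level in Slit1 (46.3% to 48.2%) and 30.1% in vector (29.2% to 31.0%). Cyfip2 overlaps Fndc9 in RefSeq, which had 8.07 counts in Slit1 and 12.1 in vector, few beside the counts of Cyfip2, 5960 in Slit1 and 3279 in vector. Cyfip1 overlaps Nipa1 (599 counts in Slit1 and 816 in vector), and reads of such pairs could have been divided between them.

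At the ABI position no difference in share of this size was seen, and no share was computed for Nckap1 or Brk1. Nckap1, the partner that binds CYFIP along its length, was at 256 TPM in Slit1 and 252 TPM in vector (ratio 1.02, 0.988 to 1.05). Brk1, from the wider list of actin regulators, was at 209 TPM in Slit1 and 191 TPM in vector. The adaptors Abi1 (59.6 TPM in Slit1 and 78.5 TPM in vector, 1.32-fold lower) and Abi2 (61.8 TPM in Slit1 and 86.8 TPM in vector, 1.40-fold lower) were lower by similar factors, so that Abi2 held 50.9% of their sum in Slit1 and 52.5% in vector. Abi2 overlaps Raph1, which had 516 counts in Slit1 and 442 in vector. Wasl, encoding N-WASP, which answers to the GTPase Cdc42, was at 35.5 TPM in Slit1 and 38.9 TPM in vector. Wipf1, whose product binds N-WASP, was at 50.9 TPM in Slit1 and 34.1 TPM in vector, below the limit in TPM but beyond 1.5-fold under each other scaling; it was named after its value was seen.

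**Figure D3:**
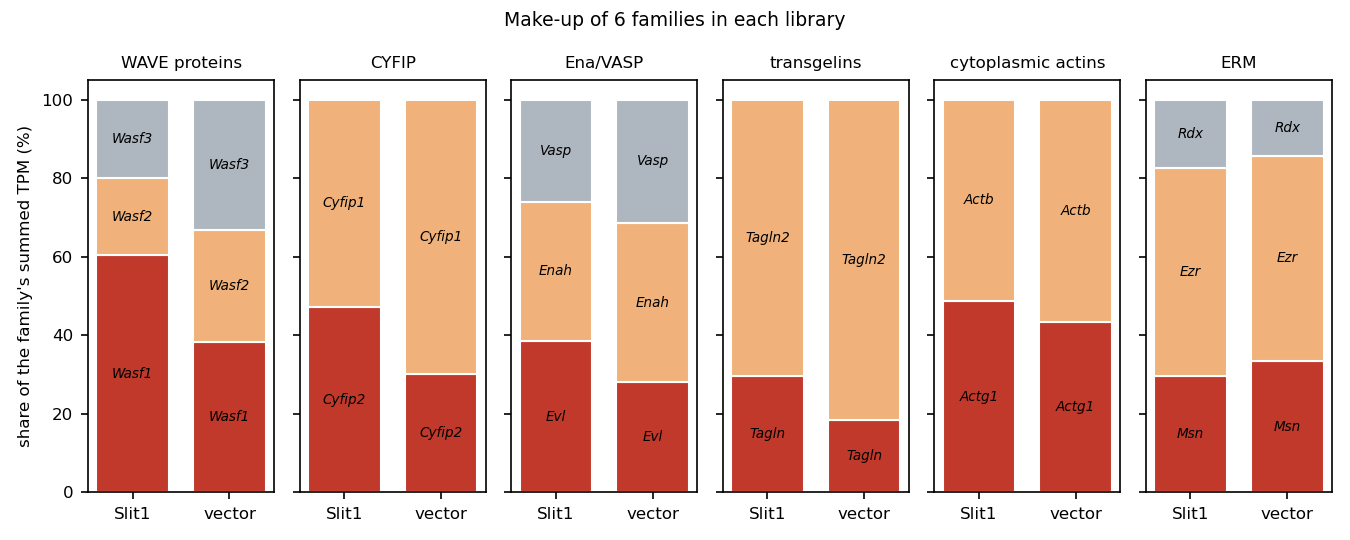
Share of each gene in the summed TPM of its family (percent), in Slit1 (left bar) and vector (right bar), for 6 families. The Wasf1 segment covers 60.5% in Slit1 and 38.4% in vector and the Cyfip2 segment 47.2% in Slit1 and 30.1% in vector, while the ERM bars differ less.

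Of the 3 genes whose products stabilise or remodel branches none was called. Coro1b, a coronin that takes branches apart at the leading edge, was at 302 TPM in Slit1 and 222 TPM in vector, 1.36-fold higher (1.30 to 1.42). Its relative Coro1c was at 144 TPM in Slit1 and 137 TPM in vector, and Cttn, cortactin, which stabilises branches, at 175 TPM in Slit1 and 183 TPM in vector. For Coro1c the choice of unit mattered: the ratio was 1.046 in TPM and 1.14 in CPM, because the effective length implied by the deposited counts and TPM differed between the libraries for this gene by a factor of 1.06 relative to the median gene.

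Genes for unbranched growth had low to moderate levels and none was called. The diaphanous formins, which drive filament elongation, were the scarcest role group, at 24.5 TPM in Slit1 and 26.0 TPM in vector. Diaph2 differed most and had the lowest level of all members, 2.95 TPM in Slit1 and 4.01 TPM in vector, 1.36-fold lower with a wide interval (1.13 to 1.63). Diaph1 was at 14.3 TPM in Slit1 and 15.4 TPM in vector, and Diaph3 at 7.25 TPM in Slit1 and 6.58 TPM in vector. In the Ena/VASP family, which protects growing ends from capping, Evl lay above 0 and its relatives below. Evl was at 56.5 TPM in Slit1 and 42.9 TPM in vector, 1.32-fold higher (1.19 to 1.46). Vasp was at 38.1 TPM in Slit1 and 48.3 TPM in vector, and Enah at 52.1 TPM in Slit1 and 62.1 TPM in vector. Evl made up 38.5% of the family's summed TPM in Slit1 and 28.0% in vector. The Enah ratio was 0.840 in TPM and 0.961 in CPM, again with a length that differed between the libraries, here by a factor of 1.11.

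Genes of filament disassembly showed no common shift. None of the 4 was called and their median difference was -0.04, above 0 under the other scalings except with the gene length trend removed. Cfl1, cofilin 1, the main severing factor of non-muscle cells, was at 2761 TPM in Slit1 and 2639 TPM in vector (ratio 1.046, 1.03 to 1.06). Dstn, destrin, a relative that depolymerises filaments, was at 539.6 TPM in Slit1 and 531 TPM in vector. Gsn, gelsolin, a calcium-dependent severing protein that is abundant in oligodendrocytes, was at 184 TPM in Slit1 and 196 TPM in vector (ratio 0.937, 0.898 to 0.978). Thus gelsolin was not higher in the library in which Mbp and other myelin genes were higher (Mbp was at 1704 TPM in Slit1 and 220.5 TPM in vector). Cfl2, the muscle-type cofilin, was the one that differed most, with 88.9 TPM in Slit1 and 113 TPM in vector, 1.27-fold lower (1.201 to 1.34). Summed severing genes stood at 53.4 TPM per 100 TPM of actins in Slit1 and 52.9 TPM in vector. Cfl1 has 11 named pseudogene copies in RefSeq, so its value carries the same uncertainty as those of the actins.

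The kinases and the phosphatase that act on cofilin were low in level and mostly below 0. LIM kinases inactivate cofilin by phosphorylation, and Limk1 (26.9 TPM in Slit1 and 28.3 TPM in vector) and Limk2 (65.1 TPM in Slit1 and 61.9 TPM in vector) differed little. Limk2 overlaps Patz1 and Pik3ip1 in RefSeq, which together had 2571 counts in Slit1 and 2434 in vector. Limk2 itself had 2025 counts in Slit1 and 1815 in vector, and reads of such genes could have been divided between them. The phosphatase gene Ssh1, which reactivates cofilin, was at 9.15 TPM in Slit1 and 10.7 TPM in vector. The kinases above LIM kinase lay lower in Slit1 than in vector, each by less than 1.5-fold. Rock2 differed most, with 23.2 TPM in Slit1 and 30.4 TPM in vector, 1.31-fold lower (1.22 to 1.40). Rock1 was at 31.0 TPM in Slit1 and 39.6 TPM in vector and Pak1 at 10.96 TPM in Slit1 and 13.8 TPM in vector. In this group of 6 the median difference was -0.25, and -0.11 with the gene length trend removed.

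Capping genes lay within 1.3-fold and none was called. Capping protein closes the growing end as a dimer of an alpha and a beta subunit. The alpha genes Capza1 (81.2 TPM in Slit1 and 96.3 TPM in vector) and Capza2 (133 TPM in Slit1 and 169 TPM in vector, 1.27-fold lower, 1.205 to 1.33) were below 0, and the beta gene Capzb (343 TPM in Slit1 and 326 TPM in vector) slightly above. Capg, a capping member of the gelsolin family, was at 133 TPM in Slit1 and 141 TPM in vector.

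Bundling genes divided. Fscn1, fascin, which packs filaments into the parallel bundles of filopodia, was at 378 TPM in Slit1 and 238 TPM in vector, 1.59-fold higher (1.54 to 1.65). Actn1, alpha-actinin 1, which cross-links filaments at adhesions and stress fibres, was at 51.5 TPM in Slit1 and 70.7 TPM in vector, 1.37-fold lower (1.29 to 1.46). Actn4 was at 145 TPM in Slit1 and 160 TPM in vector, and Flna, filamin A, which joins filaments into networks, at 181 TPM in Slit1 and 196 TPM in vector. Fascin was the most abundant of the 4 in each library. The group's median difference was -0.13, and the summed level was 755 TPM in Slit1 and 664 TPM in vector, so the sum and the median differ in sign because of Fscn1. Fscn1 remained the only one of the 4 called higher under every scaling, and Fscn1 overlaps no gene that has a row in the table.

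The ERM linkers were the role group in which every member was lower. Of the 3, Msn and Ezr were called lower, beside 4.83% of all genes, and 0 were called higher, beside 3.72%. Their median difference was -0.60. Of all 13175 genes, 7383 lay below 0. Msn, moesin, was at 182 TPM in Slit1 and 315.5 TPM in vector, 1.73-fold lower (1.66 to 1.81). Ezr, ezrin, was at 325 TPM in Slit1 and 493 TPM in vector, 1.52-fold lower (1.47 to 1.56), which is just beyond the limit. Rdx, radixin, was at 107 TPM in Slit1 and 135 TPM in vector, 1.27-fold lower (1.21 to 1.32), which does not reach it. Their summed level was 614 TPM in Slit1 and 943 TPM in vector, a ratio of 0.651. Ezrin stayed the most abundant, with 53.0% of the sum in Slit1 and 52.2% in vector, while moesin held 29.7% in Slit1 and 33.4% in vector. The family's summed level thus differed more than its make-up. Per 100 TPM of the Arp2/3 complex, ERM genes stood at 31.0 TPM in Slit1 and 44.7 TPM in vector. Ezr fell short of the limit once the median gene was set to 0 (log2 difference -0.55). It also did so in CPM, in FPKM, with TMM factors and with the gene length trend removed. Msn was called lower in each of these. Rdx overlaps Zc3h12c, which had 715 counts in Slit1 and 962 in vector. Ezrin is also known from astrocyte processes. Of the 8 astrocyte markers at 1 TPM or more, 4 lay above 0 and 4 below, with a median difference of -0.03. Slc1a2 and Gja1 were lower in Slit1 as given above, while Aqp4 (462 TPM in Slit1 and 389 TPM in vector) and Gfap were not. Whether astrocytes had a part in the Ezr level was not tested.

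**Figure D4:**
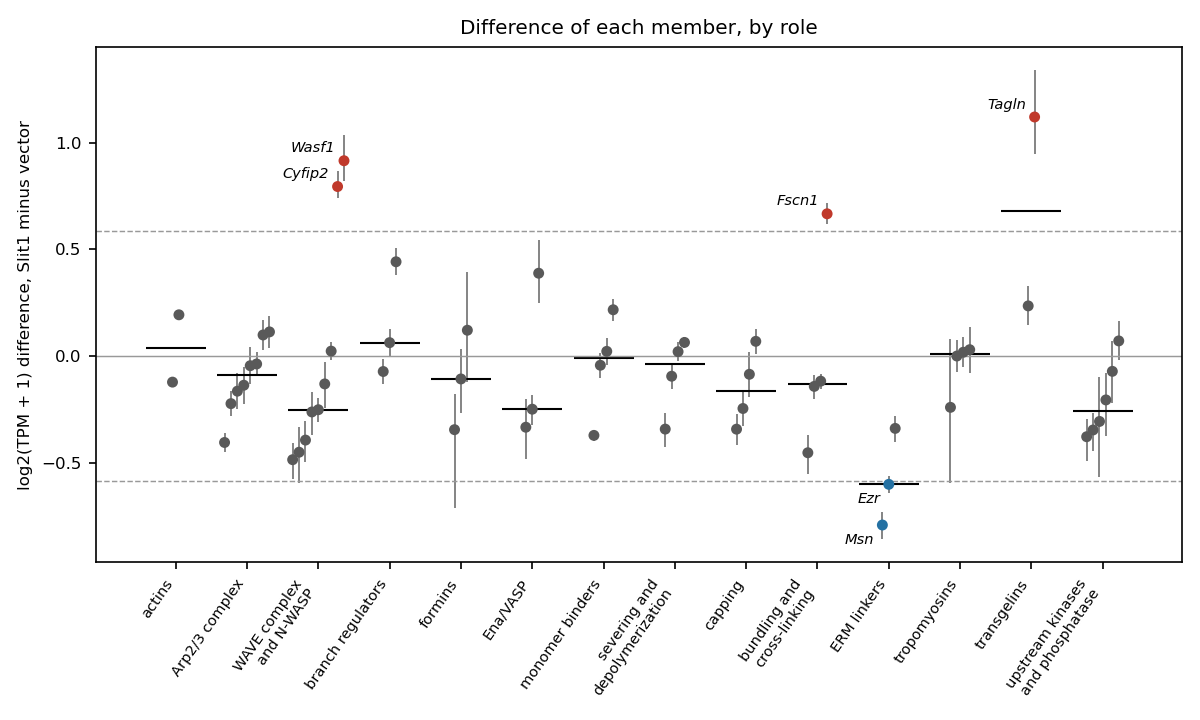
Slit1 minus vector difference of log2(TPM + 1) for each of the 59 members by role; thin lines are exact 95% counting intervals of the TPM ratio, thick lines group medians, and dashed lines 1.5-fold. Tagln, Wasf1, Cyfip2 and Fscn1 (red) lie above the upper line, Msn and Ezr (blue) on the far side of the lower one, and the third ERM gene, Rdx, is also below 0.

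Genes that coat or stabilise filaments included the member with the largest difference. Tagln, transgelin, a calponin-family protein best known from smooth muscle, was at 79.9 TPM in Slit1 and 36.2 TPM in vector, 2.21-fold higher (1.93 to 2.53), and was the 1 member beyond 2-fold, a limit passed upward by 1.24% of all genes. It ranked 137 from the top among the 13175 genes. Tagln2 was at 189 TPM in Slit1 and 160 TPM in vector, 1.18-fold higher (1.11 to 1.26), so that Tagln made up 29.8% of the transgelin sum in Slit1 and 18.5% in vector. Of 14 listed markers of mural cells, smooth muscle and fibroblasts, 12 were in the table and 6 averaged 1 TPM or more, with 0 called in either direction. The 12 summed to 33.6 TPM in Slit1 and 36.1 TPM in vector. The smooth muscle genes Acta2 (0.25 TPM in Slit1 and 0.60 TPM in vector) and Cnn1 (0.16 TPM in Slit1 and 0.49 TPM in vector) were near 0. Others of the list were detected: Myh11 was at 4.64 TPM in Slit1 and 5.96 TPM in vector. Pdgfrb was at 7.94 TPM in Slit1 and 7.06 TPM in vector, and Col1a2 at 9.94 TPM in Slit1 and 11.68 TPM in vector. The part of such cells in the Tagln level was not tested. Tropomyosins, which wind along filaments and regulate access of other proteins, differed little. Tpm1 (205.3 TPM in Slit1 and 205.03 TPM in vector), Tpm3 (199 TPM in Slit1 and 196 TPM in vector) and Tpm4 (193 TPM in Slit1 and 189 TPM in vector) lay within 1.02-fold. The scarce Tpm2 (12.7 TPM in Slit1 and 15.2 TPM in vector) had a ratio of 0.838 (0.662 to 1.06).

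Other actin regulators from a wider list were set beside the members. Of 75 listed, 73 were in the table and 63 averaged 1 TPM or more; 2 of these were called higher (3.17%, beside 3.72% of all genes) and 4 lower (6.35%, beside 4.83% of all genes), with a median of -0.05. Both shares are near those of all genes, and the genes named next describe the list and do not set it apart. Pls1 and Pls3, plastins that bundle filaments, were lower: Pls1 was at 1.88 TPM in Slit1 and 4.43 TPM in vector, 2.36-fold lower (1.71 to 3.27), and Pls3 at 69.1 TPM in Slit1 and 110.0 TPM in vector, 1.59-fold lower (1.501 to 1.69). Thus among bundling genes fascin was higher while the plastins and alpha-actinin 1 lay lower. Pak2, a Rac- and Cdc42-activated kinase, was at 72.4 TPM in Slit1 and 123 TPM in vector, 1.70-fold lower (1.58 to 1.83), on the same side of 0 as its relative Pak1. Cald1, caldesmon, which binds tropomyosin-coated filaments, was at 73.6 TPM in Slit1 and 121 TPM in vector, 1.65-fold lower (1.57 to 1.73). These 4 were called lower under every scaling, but Pls1 was not with a pseudocount of 5 and did not reach a floor of 5 TPM. The 2 called higher, named after their values were seen, were Kank1 (33.8 TPM in Slit1 and 21.4 TPM in vector) and Gmfg, which rested on 17 counts in Slit1 and 9 in vector. Neither call held in CPM. Of 9 genes of myosin II and its light chains, 8 reached the floor, and 1 was called higher (beside 3.72% of all genes) and 0 lower: Myl9, a regulatory light chain, was at 22.5 TPM in Slit1 and 14.6 TPM in vector (ratio 1.54, 1.23 to 1.92), a call lost at a pseudocount of 5 and once the trend on gene length was taken out. The heavy chain genes Myh9 (71.3 TPM in Slit1 and 82.5 TPM in vector) and Myh10 (32.8 TPM in Slit1 and 33.8 TPM in vector) lay between the limits.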

How the data were processed

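RNA of 2 libraries of rat OPCs, 1 transfected with Slit1 and 1 with vector, was measured by sequencing. The authors deposited 1 table with FPKM, TPM and estimated counts per gene, per the file headers; the TPM values were scaled by the authors to 1000000 per library, and the estimated counts need not be whole. Reads were processed on mRatBN7.2, per the submitters' processing notes. Aligner, counter, annotation, strand handling and filters: not given in the sources used here. No value column of another sample was in the table (0). Genes averaging 1 TPM or more were compared on the log2(TPM + 1) scale as Slit1 minus vector; the pseudocount understates changes of low genes. Exact (Clopper-Pearson) 95% intervals of count ratios, from counts rounded to whole numbers, were carried to TPM ratios (scipy 1.17.1); they and the shares' intervals cover counting error only, at 18817462 to 18998770 counts a library. No p-value was computed. Alternatives used edgeR 4.0.16 for TMM factors and statsmodels 0.14.6 for a lowess fit on gene length (span 0.3). Calculations were tested on simulated data. All 59 gene numbers matched RefSeq (GRCr8), used for overlaps, copies and promoters. Members called, members of the Arp2/3, WAVE, severing, bundling and ERM groups, the largest difference in each other role group, and up to 4 called genes of each wider list were named by rule; other members and marker genes were added. The result of 1 wider list is not reported here. Members and lists were chosen with earlier results of these data known.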

Additional observations from a re-analysis of the deposited data

How the results depend on the processing

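No paired analysis was possible because each group has 1 library. The 4 members called higher were the same genes (Cyfip2, Fscn1, Tagln and Wasf1) under both other pseudocounts (0.1 and 5), both other floors (0 and 5 TPM), the median gene set to 0, CPM with and without TMM factors, FPKM, the gene length trend removed, and the counting interval wholly beyond 1.5-fold; at a limit of 2-fold 1 was left and at a limit of 25% there were 6. Of the 2 called lower, 1 (Msn) was left with the median gene set to 0, CPM with and without TMM factors, FPKM, the length trend removed or the interval rule, 0 at 2-fold, and 15 at 25%. The median log2 difference of the ERM linkers, -0.60, was -0.55 once the median gene stood at 0, -0.54 under TMM factors, -0.56 in CPM, -0.55 in FPKM and -0.54 without the length trend. The WAVE and N-WASP median of -0.25 was -0.12 with the length trend removed. The bundling median of -0.13 was -0.082 once the median gene stood at 0, -0.080 under TMM factors and 0.0032 without the length trend; the cause was not tested. The median of all members, -0.106, was -0.045 under TMM factors. That of Arp2/3, -0.089, was -0.034 under TMM factors and -0.125 without the length trend. The severing median of -0.035 was 0.013 under TMM factors. Of the 59 members, 50 kept their sign under every setting, as did all 23 with a difference of at least 0.25. There were no replicates to set beside the counting error. Diaph2, Diaph3, Tpm2, Pak1 in Slit1 and Tagln in vector (314 counts) rested on fewest counts.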

Other observations

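Genes of serum response factor, which controls many actin genes, its coactivators and targets were measured beside the actin machinery. Of 12 listed symbols, some of them older names of the same genes, 8 were in the table and 1 was called lower, beside 4.83% of all genes. Mrtfb, a coactivator that senses free actin monomers, was at 9.59 TPM in Slit1 and 15.9 TPM in vector, 1.66-fold lower (1.44 to 1.91), a call lost in FPKM, with a pseudocount of 5 and with the gene length trend removed. Srf was at 19.2 TPM in Slit1 and 17.9 TPM in vector, and Mrtfa at 19.5 TPM in Slit1 and 17.5 TPM in vector.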
